A study of Rattus norvegicus with 12 samples.

Results

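Sterol and fatty acid synthesis is described here through 32 genes of 4 groups. They are 8 genes of the mevalonate and isoprenoid steps, 11 of the steps from squalene to cholesterol, 6 regulators and carriers of sterols, and 7 genes that make, lengthen or desaturate fatty acids. They were chosen by name, with earlier results of these data known. All 32 were among the 17315 genes of the count files (Scd under its older symbol Scd1). All 32 also passed the filter on low counts, which left 11321 genes to test.

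RNA was sequenced from 12 cultures labelled as rat Müller cells, the glia that span the whole depth of the retina. The 4 primary cultures came from Sprague-Dawley pups of postnatal day 2 to 4 and were taken at passage 3 or 4 in medium with 20% serum, the antibiotic gentamicin (87 mg/L) and the antifungal amphotericin B (2.2 mg/L). SIRMu-1, a spontaneously immortalized line from pups of the same strain and age, gave 5 cultures in 20% serum, at passage 6 (replicate 1), 11 (replicates 2 to 4) and 20 (replicate 5), and only replicates 3 and 5 had the 2 drugs. The rMC-1 line, from adult rats and immortalized with the SV40 large T antigen, gave 3 cultures at passages 23 to 26 in 10% serum without the drugs. All media held 25 mM glucose and 2 mM glutamine. Each line is 1 line, so the spread between its libraries is that between cultures. Donor age, serum and passage cannot be told apart from the line in the rMC-1 comparisons, nor the drugs in rMC-1 against primary. In SIRMu-1 against primary, passage (6 to 20 against 3 or 4) cannot be told apart from the line either. The drugs were unbalanced there, in all 4 primary cultures but only in SIRMu-1 replicates 3 and 5.

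Libraries held 22582345 to 38125630 reads in genes. Levels are CPM, the counts put on one library size with TMM factors, which even out differences in library composition. Summed over 10 Müller glia markers, primary libraries held 5713 to 7554 CPM, SIRMu-1 3002 to 4148 and rMC-1 1448 to 1534. Vim, which other cells also express, gave most of these sums (6207, 3540 and 1367 CPM on average). Of the 8 markers tested, 5 fell in SIRMu-1 and none rose, and 5 fell in rMC-1 and 1 rose: Rlbp1, from 6 counts over the 4 primary libraries to 109 over the 3 of rMC-1 (3.76 ± 0.65 on the log2 scale). Glul, a defining marker, was at 143, 56.8 and 54.8 CPM on average, and Sox9 at 52.2, 71.6 and 0.0358. Car2 had no counts in either line, and Aqp4 and Kcnj10 were near 0 throughout, with 2 and 13 counts over the primary libraries. Summed levels of 9 fibroblast genes were 72143 to 192945, 69050 to 93538 and 4711 to 6599 CPM in the same order. Summed levels of 10 proliferation genes were 101 to 136 CPM in primary libraries, 287 to 1342 in SIRMu-1 and 4145 to 4514 in rMC-1. The part of cell makeup, growth or medium in the results below was not tested, and in bulk RNA fewer cells of a type and less RNA per cell cannot be told apart.

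Cells make cholesterol from acetyl-CoA through mevalonate, isoprenoid diphosphates, squalene and lanosterol, and the same acetyl-CoA feeds fatty acid synthesis. Both routes are switched on by the SREBP transcription factors, the products of Srebf1 and Srebf2. Their precursors sit in the endoplasmic reticulum with the sterol sensor Scap, and Insig proteins hold them there when sterols are plentiful. When sterols run low, Scap carries them to the Golgi, where they are cut and released to the nucleus. In the retina, Müller glia are among the cells that make cholesterol and pass lipids to neurons.

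SREBP proteins act at promoters together with NF-Y, which binds CCAAT boxes, and Sp1, which binds GC-rich boxes. The promoters below are 4 examples, picked because the genes rose in rMC-1 and have 2 or more CCAAT boxes in the window searched. They therefore do not show whether the 2 traits go together. Windows of 300 bases, from 250 before to 50 after the start, were available for 25 of the 32 genes in the RefSeq table of build GRCr8. Shown are the 150 bases before the start on each gene's own strand, 5′ to 3′, with CCAAT or its reverse complement ATTGG in capitals; further matches of Hmgcs1 and Msmo1 lie outside these bases. Hmgcs1 lies on the plus strand at chr2:53382154-53382303, Idi1 on the minus strand at chr17:66547525-66547674, Fdps on the minus strand at chr2:176804817-176804966 and Msmo1 on the plus strand at chr16:29746963-29747112.
Hmgcs1: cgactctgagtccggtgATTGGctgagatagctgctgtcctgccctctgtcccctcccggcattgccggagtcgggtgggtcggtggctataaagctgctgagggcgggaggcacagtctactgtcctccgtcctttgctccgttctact
Idi1: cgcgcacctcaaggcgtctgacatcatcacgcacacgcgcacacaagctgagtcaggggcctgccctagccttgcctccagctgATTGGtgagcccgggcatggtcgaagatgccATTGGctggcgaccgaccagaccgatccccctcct
Fdps: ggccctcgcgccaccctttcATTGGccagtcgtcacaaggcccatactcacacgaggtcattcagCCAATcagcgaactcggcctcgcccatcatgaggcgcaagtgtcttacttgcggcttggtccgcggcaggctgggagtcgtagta
Msmo1: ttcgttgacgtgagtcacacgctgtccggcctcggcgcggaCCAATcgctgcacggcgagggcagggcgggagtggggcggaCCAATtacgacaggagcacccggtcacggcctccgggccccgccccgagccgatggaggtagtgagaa

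CCAAT stood on either strand in 19 of the 25 member windows (76%), against 37.7% of all 27457 promoter windows and 37.3% of those of tested genes. There were 37 matches in all, 28 of them as ATTGG on the gene's strand, and 10 members had 2 or more. Acat2, Cyp51, Dhcr7, Scd and Fads2, which rose in rMC-1, had no CCAAT in their windows, and nor did Scap, which fell. Nsdhl had 5 matches, Hsd17b7 3 and Tm7sf2 2, and none of these genes was called in rMC-1 against primary. GGCGGG, an Sp1 box, was also in 19 of 25 (76%), against 33.8% of all windows but 62.2% of those of tested genes. The element TCACNCCAC, searched on both strands like the others and overlapping neither, was in 0 of 25 member windows and in 1.13% of all. The plan had been to show windows that hold it, and CCAAT took its place after none did. These are matches of letters in a short window, not sites.

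Most of the 32 genes stood above the primary cultures in rMC-1, with SIRMu-1 between. A gene was called when its adjusted p was under 0.05 in edgeR's quasi-likelihood test over all 12 libraries, with Benjamini-Hochberg adjustment over all tested genes. In rMC-1 against primary, 22 members rose, 2 fell and 8 were not called, where 31.9% of all tested genes rose and 38.9% fell. The median member difference was 1.35 on the log2 scale, against -0.15 over all genes. In SIRMu-1 against primary, 13 rose, 2 fell and 17 were not called, where 21.7% of all genes rose and 24.4% fell, and the median was 0.56 against -0.02. In SIRMu-1 against rMC-1, no member was called higher and 18 were lower, where 32.7% of all genes were higher and 30.5% lower, with a median of -0.77 against 0.03. The first 2 comparisons share the 4 primary libraries.

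The groups' libraries were also set side by side without a test. All 3 rMC-1 libraries lay above all 4 primary libraries for 26 members and below for 2, where 32.7% and 38.2% of all tested genes did so. All 5 SIRMu-1 libraries lay above all primary ones for 8 members and below for 1 (17.2% and 18.1% of all genes). Against rMC-1, all SIRMu-1 libraries were lower for 16 members and higher for 1 (31% and 32% of all genes).

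**Figure D1:**
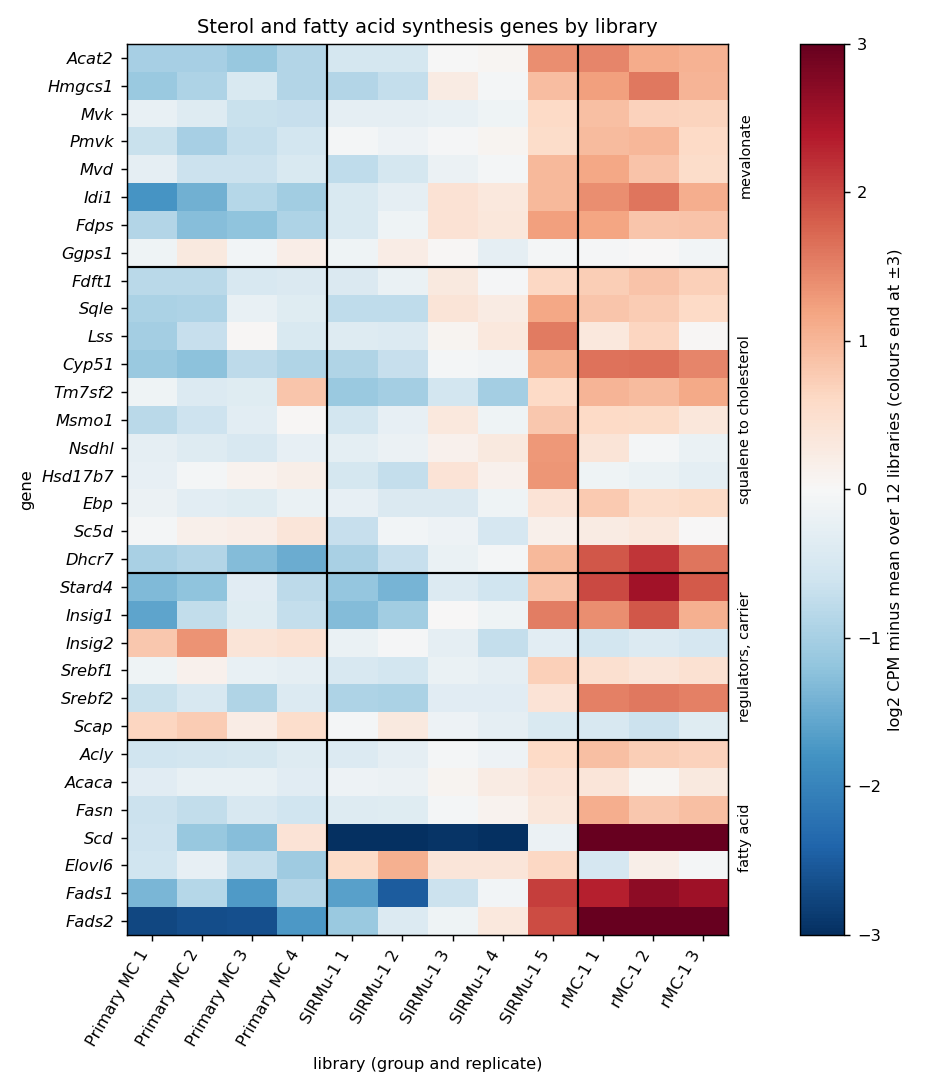
Heat map of the 32 genes (rows, in 4 groups) in 12 libraries (columns), coloured by log2 CPM minus the gene's mean over the libraries, with colours ending at ±3. Most rows run from blue in primary cultures to red in rMC-1; SIRMu-1 replicate 5 was the highest SIRMu-1 library for 28 of 32 genes, and Scd was below the other groups in SIRMu-1 replicates 1 to 4.

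One library stood apart within its group. SIRMu-1 replicate 5, the culture at passage 20 with the drugs, had the highest SIRMu-1 level of 28 of the 32 genes and reached at least the lowest rMC-1 level for 16 (shares over all genes were not computed). Without it, 10 members rose and 5 fell in SIRMu-1 against primary (20.1% and 25.6% of all genes), and the median was 0.26. Without it, 25 members were lower in SIRMu-1 than in rMC-1 (34.0% of all genes) and the median was -1.05. In rMC-1 against primary, 26 rose and 2 fell when it was left out of the shared fit. That library enters this comparison only through the filter, scaling and spread estimates that all libraries share. The added calls are thus not a result about the members alone. In SIRMu-1 against primary, the calls of Hmgcs1, Acly and Acaca were lost without it, and Tm7sf2, Sc5d and Scd were called lower. In rMC-1 against primary, Lss, Tm7sf2, Nsdhl and Srebf1 were then also called higher. In SIRMu-1 against rMC-1, Fdps, Sqle, Msmo1, Sc5d, Insig1, Srebf1 and Acaca were then also called lower.

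**Figure D2:**
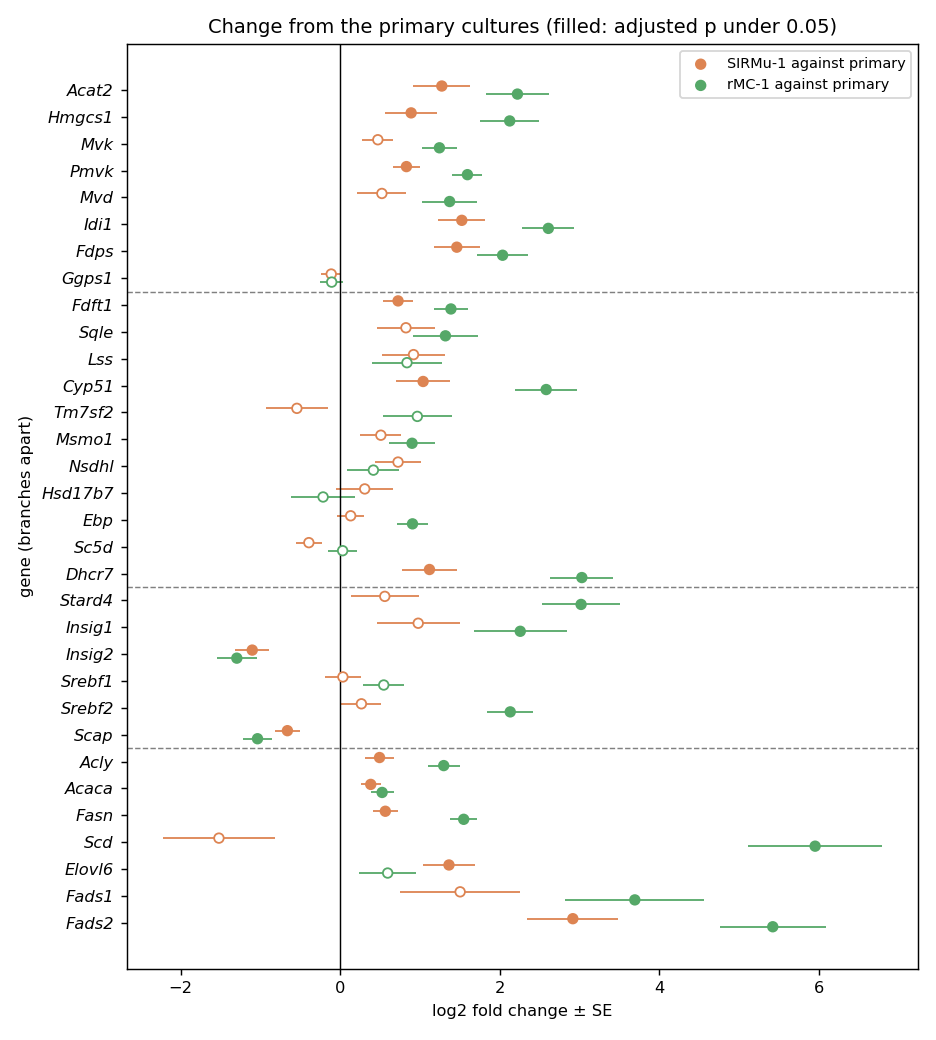
Log2 fold change ± SE of each gene in SIRMu-1 (orange) and rMC-1 (green) against the primary cultures, with the 4 groups of genes separated by dashed lines and calls filled. The 22 genes called higher in rMC-1 sit to the right of 0, each farther than in SIRMu-1, while Insig2 and Scap sit to the left in both lines.

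Of the 8 mevalonate and isoprenoid genes, 7 rose in rMC-1 and 5 in SIRMu-1, none fell in either line, and 6 were lower in SIRMu-1 than in rMC-1. These are 87.5%, 62.5% and 75%, beside 31.9%, 21.7% and 30.5% of all genes. Of all genes, 38.9% fell in rMC-1 and 24.4% in SIRMu-1. The median log2 difference was 1.82 in rMC-1 and 0.86 in SIRMu-1 (0.60 without SIRMu-1 replicate 5, with 4 higher). Their summed level was 289 to 334 CPM in primary libraries and 1082 to 1332 in rMC-1. In SIRMu-1 replicates 1 to 5 it was 391, 455, 708, 638 and 1191 CPM, so all 5 were above the primary range and replicate 5 alone was within the rMC-1 range.

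Idi1, the isomerase that makes the 2 forms of the isoprenoid unit, was at 17.9, 22.7, 34.2 and 29.8 CPM in the primary libraries. It was at 45.0, 50.6, 83.5, 77.2 and 120.1 CPM in SIRMu-1 and at 160.4, 188 and 130.4 in rMC-1. The 3 groups did not overlap. The gene rose by 1.53 ± 0.29 on the log2 scale in SIRMu-1 (edgeR adjusted p = 0.00146) and by 2.61 ± 0.33 in rMC-1 (adjusted p = 2.5e-05), and without SIRMu-1 replicate 5 the first value was 1.27.

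Fdps joins isoprenoid units to farnesyl diphosphate, the branch point of sterols and prenylated proteins. Its levels were 118, 89.6, 94.6 and 115 CPM in primary cultures, 158, 198, 297, 275 and 512 in SIRMu-1, and 498, 391 and 398 in rMC-1. Both lines lay above the primary range, and SIRMu-1 replicate 5 was the highest of all libraries. Fdps rose by 1.46 ± 0.29 in SIRMu-1 (edgeR adjusted p = 0.00185) and by 2.04 ± 0.32 in rMC-1 (adjusted p = 0.000146). The difference between the lines was not called (-0.57 ± 0.30, adjusted p = 0.115), but was without replicate 5 (-0.98, adjusted p = 0.00197).

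Acat2 makes acetoacetyl-CoA, the entry to the pathway. It was at 17.4, 17.5, 15.9 and 19.1 CPM in primary libraries, at 24.3, 24.4, 34.8, 36.3 and 91.8 in SIRMu-1 and at 97.3, 75.8 and 72 in rMC-1. Neither line overlapped the primary range. The log2 differences were 1.27 ± 0.36 in SIRMu-1 (edgeR adjusted p = 0.0124) and 2.22 ± 0.40 in rMC-1 (adjusted p = 0.000368), and without SIRMu-1 replicate 5 the first was 0.75 (adjusted p = 0.00401).

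Hmgcs1, the HMG-CoA synthase of the next step, was at 84.8, 97.6, 134 and 100.2 CPM in primary cultures. Its SIRMu-1 levels were 101, 113, 221, 178 and 353 CPM and its rMC-1 levels 433, 556 and 376. SIRMu-1 replicates 1 and 2 were within the primary range, and all rMC-1 libraries were above every other one. The rise in rMC-1 was 2.13 ± 0.37 (edgeR adjusted p = 0.000315). The call in SIRMu-1 (0.89 ± 0.33, adjusted p = 0.0443) held in 3 of 12 fits that left out 1 library, and was 0.53 (adjusted p = 0.11) without replicate 5.

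Of the other mevalonate genes, Pmvk, a mevalonate pathway kinase, rose in both lines, by 0.83 ± 0.17 (edgeR adjusted p = 0.00206) and 1.60 ± 0.19 (adjusted p = 1.54e-05). Mvk, the kinase before it, and Mvd, the decarboxylase after it, rose in rMC-1 alone, by 1.25 ± 0.22 and 1.37 ± 0.34, with values of 0.47 and 0.52 in SIRMu-1 that were not called (0.25 and 0.12 without replicate 5). Ggps1, which makes geranylgeranyl diphosphate for protein prenylation rather than sterols, was called in no comparison. Its levels were 17.7 to 26.0 CPM over all 12 libraries, and its log2 difference was -0.11 in each line.

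**Figure D3:**
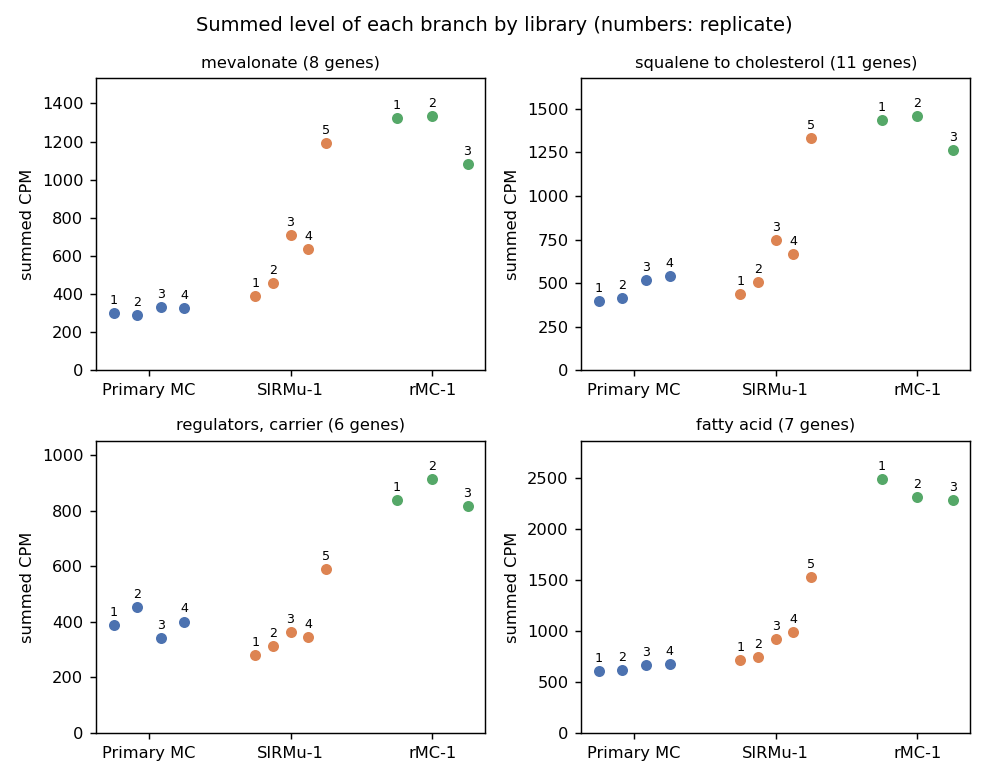
Summed CPM of each group of genes by library, with 1 panel per group, axes from 0 and points numbered by replicate. In every panel the rMC-1 libraries are above the primary ones, and SIRMu-1 replicate 5 is above the other 4 SIRMu-1 libraries.

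Of the 11 genes of the steps from squalene to cholesterol, 6 rose in rMC-1 and 3 in SIRMu-1, none fell in either line, and 5 were lower in SIRMu-1 than in rMC-1. These are 54.5%, 27.3% and 45.5%, beside 31.9%, 21.7% and 30.5% of all genes, so the SIRMu-1 rise was close to that of all genes. Of all genes, 38.9% fell in rMC-1 and 24.4% in SIRMu-1. The median log2 difference was 0.91 in rMC-1 and 0.73 in SIRMu-1. Without SIRMu-1 replicate 5 the SIRMu-1 median was 0.34, with 3 higher and 2 lower (Tm7sf2 at -1.02 and Sc5d at -0.53). Summed levels were 398 to 541 CPM in primary libraries, 435, 508, 749, 667 and 1332 in SIRMu-1 and 1261 to 1456 in rMC-1, so SIRMu-1 replicates 1 and 2 were within the primary range.

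Dhcr7 reduces dehydrocholesterol to cholesterol in the last step of one route. It was at 10.2, 10.9, 8.05 and 7.10 CPM in primary cultures, 10.2, 12.3, 17.3, 19.4 and 39.3 in SIRMu-1, and 72.6, 88.3 and 61.3 in rMC-1. It had the largest rMC-1 difference of the 19 sterol enzymes, 3.03 ± 0.40 (edgeR adjusted p = 3.4e-05), and all rMC-1 libraries were above every other library. In SIRMu-1 it rose by 1.12 ± 0.35 (adjusted p = 0.0203), by 0.68 (adjusted p = 0.03) without replicate 5, and the call was lost without primary replicate 4.

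Cyp51, the demethylase that acts on lanosterol, was at 102, 93.9, 129 and 118 CPM in primary cultures, 118, 137, 214, 206 and 464 in SIRMu-1 and 685, 693 and 614 in rMC-1. Only SIRMu-1 replicate 1 overlapped the primary range, and rMC-1 was above all others. The differences were 1.04 ± 0.34 in SIRMu-1 (edgeR adjusted p = 0.0255, lost without primary replicate 1 or 2) and 2.58 ± 0.38 in rMC-1 (adjusted p = 9.41e-05). Without SIRMu-1 replicate 5 the SIRMu-1 value was 0.59 (adjusted p = 0.0296).

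Fdft1, squalene synthase, is the first enzyme given over to sterols. It was at 47.8, 47.9, 60.5 and 62.3 CPM in primary cultures, 62.1, 74.0, 103, 82.9 and 130.1 in SIRMu-1 and 139.9, 152 and 138 in rMC-1. SIRMu-1 replicate 1 fell just inside the primary range and the other 4 lay above it. The gene rose by 0.73 ± 0.19 in SIRMu-1 (edgeR adjusted p = 0.00951; 0.54 and adjusted p = 0.0152 without replicate 5) and by 1.39 ± 0.22 in rMC-1 (adjusted p = 0.000129).

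Tm7sf2, a sterol reductase, went another way. It was at 6.27, 5.2, 5.37 and 12.4 CPM in primary libraries, 3.17, 3.37, 4.66, 3.39 and 10.5 in SIRMu-1, and 14.1, 13.5 and 15.3 in rMC-1. SIRMu-1 replicates 1 to 4 were below all primary libraries and replicate 5 was among them. The difference between SIRMu-1 and rMC-1 was called (-1.51 ± 0.41, edgeR adjusted p = 0.00693). Against primary cultures neither line was called. Without replicate 5 both were, SIRMu-1 at -1.02 (adjusted p = 0.0122) and rMC-1 at 1.04 ± 0.29 (adjusted p = 0.00776). The rMC-1 value was 0.97 ± 0.43 over all 12 libraries, so mainly the shared spread estimate changed for it.

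The other 7 genes of these steps split in 2. Sqle, the squalene epoxidase, Msmo1, which removes methyl groups from sterols, and Ebp, a sterol isomerase, rose in rMC-1, by 1.32 ± 0.40 (edgeR adjusted p = 0.0114), 0.90 ± 0.29 (adjusted p = 0.0149) and 0.91 ± 0.19 (adjusted p = 0.00124). They were not called in SIRMu-1, against primary cultures, with or without replicate 5. Lss, the lanosterol synthase, Nsdhl and Hsd17b7, which complete the methyl removal, and Sc5d, a sterol desaturase, were called in no comparison of groups over all 12 libraries. Without SIRMu-1 replicate 5, Lss (0.90, edgeR adjusted p = 0.00952) and Nsdhl (0.48, adjusted p = 0.0275) rose in rMC-1 against primary. Sc5d was then called lower in SIRMu-1 than in primary cultures and than in rMC-1 (-0.63, adjusted p = 0.00432). In SIRMu-1 replicate 5, Lss (109.5 CPM), Nsdhl (74.5) and Hsd17b7 (20.5) were above all other libraries, rMC-1 included.

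The regulators did not move as one. In rMC-1 against primary, 3 of the 6 genes of this group rose (Srebf2, Insig1 and the carrier Stard4) and 2 fell (Scap and Insig2). In SIRMu-1 none rose and the same 2 fell. The rMC-1 counts are 50% and 33.3%, beside 31.9% and 38.9% of all genes. In SIRMu-1 the falls are 33.3%, where 21.7% of all genes rose and 24.4% fell. With 6 genes, shares this near those of all genes are no result about the group. Srebf2, whose product favours sterol genes, was at 107, 123, 90.5 and 129 CPM in primary libraries, 89.3, 87.8, 136, 135 and 228 in SIRMu-1, and 485, 508 and 488 in rMC-1. All rMC-1 libraries were above every other library, while SIRMu-1 replicates 1 and 2 lay below the primary range and replicates 3 to 5 above it. The rise in rMC-1 was 2.13 ± 0.29 (edgeR adjusted p = 4.15e-05), and the SIRMu-1 value was 0.27 ± 0.25 (adjusted p = 0.408; -0.03 without replicate 5).

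Srebf1, whose product favours fatty acid genes, was at 59.3, 71.4, 55.4 and 53.4 CPM in primary cultures, 46.8, 44.6, 56.0, 53.5 and 106 in SIRMu-1 and 90.1, 83.3 and 88.9 in rMC-1. The 3 rMC-1 libraries were above the primary range, but the difference was not called (0.55 ± 0.26, edgeR adjusted p = 0.0749). It was called without SIRMu-1 replicate 5 in the shared fit (0.61, adjusted p = 0.00136). SIRMu-1 replicates 1 and 2 were below the primary range and replicate 5 was the highest of all. Counts are per gene, so the 2 main transcript forms of Srebf1 cannot be told apart.

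Scap, the sterol sensor and escort, fell in both lines. It was at 186, 203, 138 and 171 CPM in primary cultures, 114, 146, 107, 98.4 and 86.9 in SIRMu-1 and 85.6, 76.5 and 93.2 in rMC-1. SIRMu-1 replicate 2 alone overlapped the primary range, and replicate 5, the highest for most members, was the lowest SIRMu-1 library here. The gene fell by 0.66 ± 0.15 in SIRMu-1 (edgeR adjusted p = 0.00451) and by 1.04 ± 0.18 in rMC-1 (adjusted p = 0.000304). Leaving out replicate 5 gave -0.61 (adjusted p = 0.00718) in SIRMu-1.

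The 2 Insig genes, whose products retain the SREBP precursors, had opposite directions. Insig1, itself an SREBP target, was at 16.6, 29.9, 38.9 and 30.5 CPM in primary cultures, 20.3, 24.1, 50.6, 45.5 and 145 in SIRMu-1 and 131, 181 and 104 in rMC-1. All rMC-1 libraries were above the primary ones, and the rise was 2.26 ± 0.58 (edgeR adjusted p = 0.00434). SIRMu-1 spanned from the primary range to the rMC-1 range, and its difference was not called (0.98 ± 0.52, adjusted p = 0.143; 0.26 without replicate 5). Insig2 was at 13.8, 20.0, 10.3 and 10.8 CPM in primary cultures, 6.83, 7.62, 6.52, 4.74 and 6.26 in SIRMu-1 and 5.33, 5.93 and 5.50 in rMC-1. Both lines lay wholly below the primary range, with falls of 1.10 ± 0.21 (adjusted p = 0.00142) and 1.30 ± 0.25 (adjusted p = 0.000611), and the difference between the lines was not called (adjusted p = 0.488).

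Stard4 encodes a soluble carrier that moves cholesterol between membranes. It was at 4.02, 4.34, 8.0 and 5.86 CPM in primary cultures, 4.52, 3.81, 7.6, 6.68 and 18.4 in SIRMu-1 and 40.4, 58.5 and 36.3 in rMC-1. The rMC-1 libraries stood above all others and SIRMu-1 replicates 1 to 4 lay around the primary range. The rise in rMC-1 was 3.02 ± 0.49 (edgeR adjusted p = 0.000173), and the SIRMu-1 value was 0.56 ± 0.43 (adjusted p = 0.304; 0.0046 and adjusted p = 0.993 without replicate 5).

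**Figure D4:**
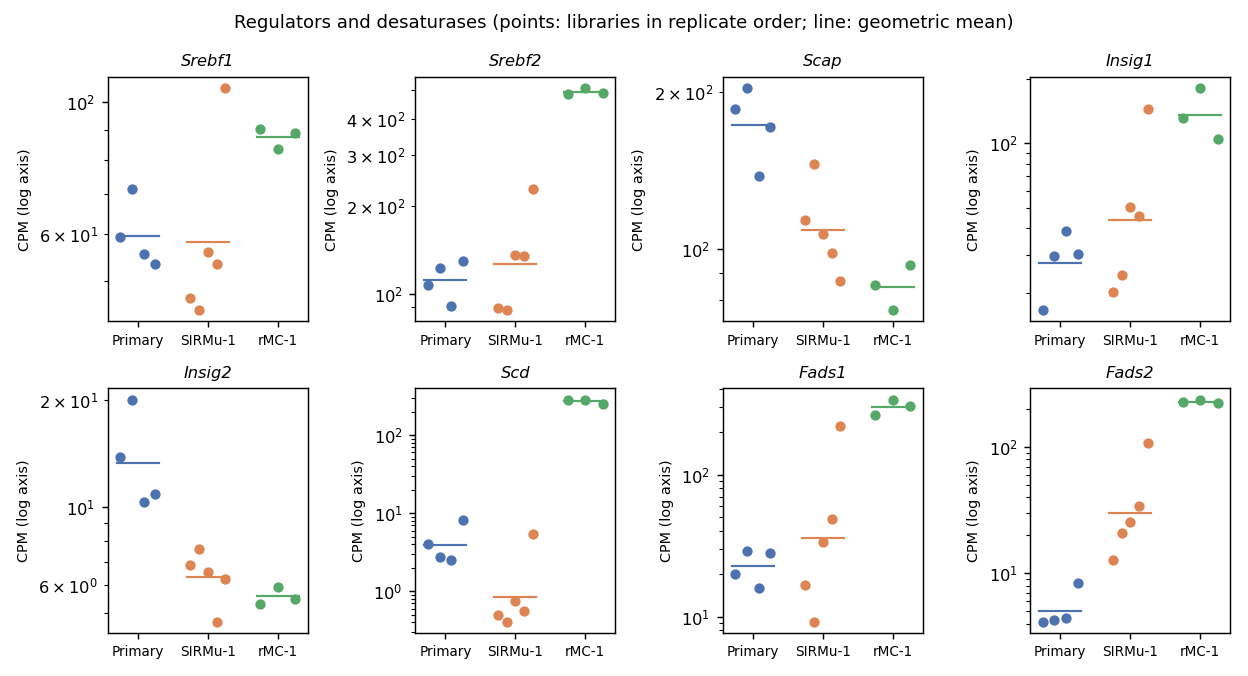
CPM on a log axis of Srebf1, Srebf2, Scap, Insig1, Insig2, Scd, Fads1 and Fads2 in each library, as points in replicate order with the geometric mean of the group as a line. The highest libraries of Scap and Insig2 are primary cultures; Scd lies below 1 CPM in SIRMu-1 replicates 1 to 4 and at 247 to 285 CPM in rMC-1.

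Of the 7 fatty acid genes, 6 rose in rMC-1 and 5 in SIRMu-1, none fell in either line, and 5 were lower in SIRMu-1 than in rMC-1. These are 85.7%, 71.4% and 71.4%, beside 31.9%, 21.7% and 30.5% of all genes. Of all genes, 38.9% fell in rMC-1 and 24.4% in SIRMu-1. The median log2 difference was 1.55 in rMC-1 and 0.57 in SIRMu-1. Without SIRMu-1 replicate 5 the SIRMu-1 median was 0.27, with 3 higher and 1 lower. Summed levels were 611 to 673 CPM in primary cultures, 712, 741, 919.6, 991 and 1524 in SIRMu-1 and 2287 to 2487 in rMC-1. The 3 groups did not overlap in this sum, to which Fasn and Acly gave most.

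The desaturases had the 3 largest rMC-1 differences of the 32 genes. Scd puts the first double bond into saturated fatty acids. It was at 3.98, 2.77, 2.5 and 8.24 CPM in primary cultures, 0.498, 0.409, 0.743, 0.560 and 5.47 in SIRMu-1 and 282, 285 and 247 in rMC-1. SIRMu-1 replicates 1 to 4 were below every primary library and replicate 5 was inside their range. The rise in rMC-1 was 5.96 ± 0.84 (edgeR adjusted p = 6.47e-05), 62.1-fold. In SIRMu-1 the difference was not called over 5 libraries (-1.52 ± 0.71, adjusted p = 0.0982), and without replicate 5 the gene was called lower (-3.01, adjusted p = 0.000239). The lines differed by -7.48 ± 0.82 (adjusted p = 1.38e-05).

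Fads2 and Fads1 add double bonds to polyunsaturated fatty acids, one after the other. Fads2 was at 4.14, 4.30, 4.43 and 8.42 CPM in primary cultures, 12.8, 21.0, 25.5, 34.3 and 107 in SIRMu-1 and 225, 237 and 223 in rMC-1. The 3 groups did not overlap. It rose by 2.92 ± 0.57 in SIRMu-1 (edgeR adjusted p = 0.00167; 2.12 and adjusted p = 0.000443 without replicate 5) and by 5.43 ± 0.66 in rMC-1 (adjusted p = 2.11e-05). Fads1 was at 20.0, 28.9, 16 and 28.1 CPM in primary cultures, 16.8, 9.22, 33.6, 49.0 and 221 in SIRMu-1 and 263, 337 and 303 in rMC-1. Its SIRMu-1 libraries lay on both sides of the primary range, with 1.50 ± 0.75 (adjusted p = 0.122) over 5 libraries and 0.21 (adjusted p = 0.72) without replicate 5. In rMC-1 it rose by 3.70 ± 0.87 (adjusted p = 0.00245).

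Fasn, the fatty acid synthase, rose by 0.57 ± 0.15 in SIRMu-1 (edgeR adjusted p = 0.0105) and by 1.55 ± 0.17 in rMC-1 (adjusted p = 1.02e-05), with 295 to 354 CPM in primary cultures, 376 to 623 in SIRMu-1 and 866 to 1044 in rMC-1. The 3 groups did not overlap. Acly, which makes cytosolic acetyl-CoA, and Acaca, which turns it into malonyl-CoA, rose by 1.30 ± 0.20 and 0.53 ± 0.14 in rMC-1. In SIRMu-1 they were called at 0.49 ± 0.18 and 0.38 ± 0.13, but without replicate 5 were at 0.27 each (adjusted p = 0.0534 and 0.0816). Elovl6, an elongase, was low everywhere, at 0.264 to 0.524 CPM in primary cultures, 0.823 to 1.38 in SIRMu-1 and 0.427 to 0.721 in rMC-1. It rose in SIRMu-1 alone (1.36 ± 0.32, adjusted p = 0.00495), and the difference between the lines was not called (adjusted p = 0.0644).

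Within the SIRMu-1 line the members spread more than most genes. Their median coefficient of variation was 45.0% over the 5 cultures, against 15.5% for all genes with a mean of at least 1 CPM. Without replicate 5 these were 23.1% and 12.6%. The members' value was 15.5% in primary cultures (18.7% for all genes) and 9.97% in rMC-1 (10.2%). Replicate 1 or 2 was the lowest SIRMu-1 library for 28 of 32 genes, and replicates 3 and 4 were both above replicates 1 and 2 and below replicate 5 for 26. Shares over all genes were not computed for these orders, so they are not shown to be particular to the members.

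The 5 cultures allowed few matched comparisons. Replicates 2 and 3 were both at passage 11, share a code in the authors' file names and differed in the drugs. The culture with the drugs was higher for 27 of 32 genes, with a median 1.38-fold. Replicate 4, at passage 11 without the drugs and with the other code, was also higher than replicate 2 for 27 of 32, again with a median 1.38-fold. Replicate 4 was higher than replicate 3 for 12 of 32. Over all genes the median log2 difference was -4.9e-15 for replicate 3 against 2, -0.0044 for 4 against 2 and -0.0066 for 4 against 3. The members vary together, so they are not separate tests of a pair of cultures. Proliferation genes summed to 1057, 287, 812, 1190 and 1342 CPM in replicates 1 to 5, of which replicate 1 was the lowest for 18 members and replicate 2 for 10.

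**Figure D5:**
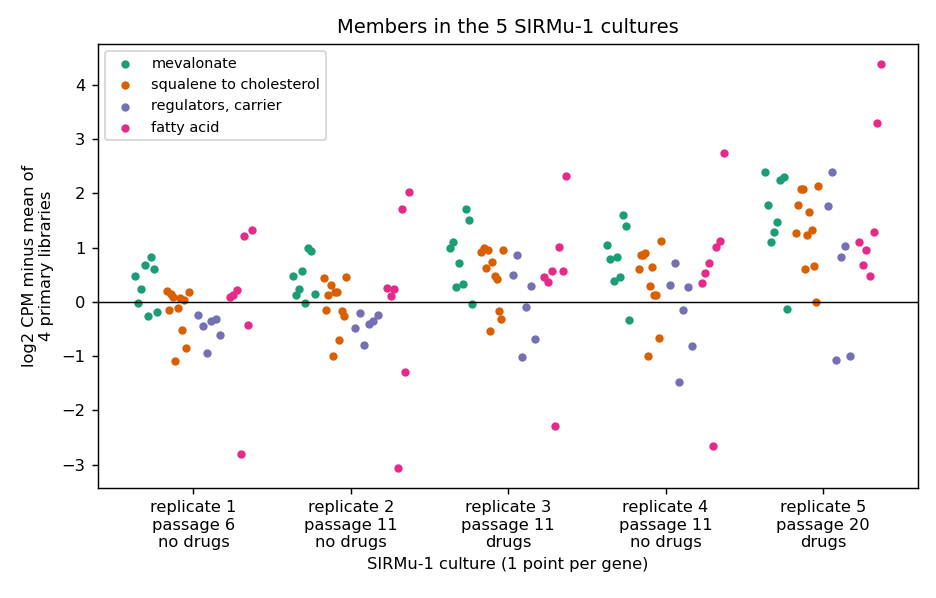
Log2 CPM of each gene in the 5 SIRMu-1 cultures minus its mean over the 4 primary libraries, with 1 point per gene coloured by group of genes. Replicate 5 is above replicate 4 for 31 of 32 genes, and replicate 4 is above replicate 3 for 12.

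By the test, the drugs gave no call. In SIRMu-1 cultures with against without the drugs (2 against 3), 0 members and 0 of all 11321 genes were called by edgeR (0% in each direction), and the smallest adjusted p of a member was 0.977. At an unadjusted p under 0.05 there were 22 members and 433 of all genes (3.82%), and 29 of 32 differences were positive with a median of 0.87. DESeq2 called 0 members and 4 genes. Without replicate 5 the median was 0.27, and 1 member and 74 genes had an unadjusted p under 0.05. Passage and drugs cannot be told apart in replicate 5.

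Media were also matched for the drugs. The 2 SIRMu-1 cultures with the drugs against the primary cultures, which all had them, gave 24 members higher and 2 lower, with a median of 1.01 (16.1% and 17.3% of all genes). These 2 are replicates 3 and 5, and replicate 5 was the highest SIRMu-1 library for 28 of 32 genes. Matching the drugs therefore cannot be told apart here from the weight of that library. The 3 cultures without the drugs gave 6 higher and 5 lower against the same primary cultures, with a median of 0.24 (17.9% and 21.0%), a comparison added after the data were seen. Against rMC-1, which had none, those 3 cultures gave 24 members lower and 1 higher, Scap at 0.49 (edgeR adjusted p = 0.0364), where 28.9% and 30.9% of all genes were called.

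Members also varied together within groups. Over the deviations of 12 libraries from their group means, the 171 pairs of the 19 sterol enzymes had a median Pearson r of 0.774. Without SIRMu-1 replicate 5 the median was 0.447 over 11 libraries, so much of it came from that library. With the sterol enzymes, Scap had a median r of -0.58, Insig2 of -0.29, Elovl6 of -0.26 and Ggps1 of -0.12, and the other 28 genes had a positive one. Without replicate 5 these 4 were at -0.35, -0.39, -0.54 and -0.17, Mvk went from 0.59 to -0.14 and Ebp from 0.71 to 0.05, and 27 genes had a positive value. These are descriptions, since the pairs share libraries and scaling.

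Of 13 other tested SREBP targets, 4 rose (30.8%, close to the 31.9% of all genes) and 1 fell in rMC-1. In SIRMu-1 2 rose and 2 fell (15.4% each, where 21.7% and 24.4% of all genes did), and 4 fell without replicate 5. Tmem97, a sterol-responsive membrane protein, rose in both lines, by 1.07 ± 0.22 (edgeR adjusted p = 0.00238) in SIRMu-1 and 1.25 ± 0.25 (adjusted p = 0.000712) in rMC-1. Me1, which makes NADPH for fatty acid synthesis, fell by 2.47 ± 0.12 in rMC-1 (adjusted p = 4.45e-08), from 257 to 305 CPM in primary cultures to 46.2 to 53.1. The phosphatidate phosphatase Lpin1 fell by 1.50 ± 0.42 in SIRMu-1 (adjusted p = 0.0123).

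Of 6 tested genes that cut SREBP precursors or control Insig turnover, 2 rose and 1 fell in rMC-1 (33.3% and 16.7%, beside 31.9% and 38.9% of all genes) and 1 rose in SIRMu-1 (2 without replicate 5). Erlin1, a scaffold of Insig and reductase degradation, was at 23.9 to 29.5 CPM in primary cultures, 25.2 to 37.6 in SIRMu-1 and 137 to 170 in rMC-1, a rise of 2.57 ± 0.15 in rMC-1 (edgeR adjusted p = 9.41e-08). Rnf139, a ubiquitin ligase, rose by 0.49 ± 0.12 in SIRMu-1 and 1.07 ± 0.13 in rMC-1, and Erlin2, the partner of Erlin1, fell by 0.37 ± 0.08 in rMC-1. Mbtps2, one of the proteases that release SREBP, was higher in SIRMu-1 than in rMC-1 (0.59 ± 0.19, adjusted p = 0.0178).

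Of 10 genes of sterol export, storage and oxysterol sensing, 0 rose and 8 fell in SIRMu-1 (80%, where 24.4% of all genes fell), with a median of -1.28. In rMC-1 0 rose and 5 fell (50%, where 38.9% of all genes fell), with a median of -1.13, and 1 rose without SIRMu-1 replicate 5. Npc2, which moves cholesterol out of lysosomes with Npc1, was at 726 to 996 CPM in primary cultures, 317 to 461 in SIRMu-1 and 86.3 to 112 in rMC-1. It fell by 1.26 ± 0.14 (edgeR adjusted p = 6.25e-05) and 3.23 ± 0.19 (adjusted p = 1.1e-07), and the 3 groups did not overlap. Abca1, the cholesterol exporter, was at 55.9 to 94.4 CPM in primary cultures and 51.4 to 105 in SIRMu-1, but at 2.03 to 3.87 in rMC-1 (-4.76 ± 0.37, adjusted p = 7.25e-07). A second exporter gene, Abcg1, fell in both lines (-3.23 ± 0.76 and -5.17 ± 1.05). Cyp27a1, a sterol hydroxylase, had 1.57 to 10.8 CPM in primary cultures and at most 0.0413 in SIRMu-1, and Ch25h, another, was below 1 CPM on average in primary cultures and fell in SIRMu-1 (-3.0 ± 0.66).

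Among 17 other fatty acid enzymes, 4 rose and 4 fell in rMC-1 (23.5% each, beside 31.9% and 38.9% of all genes), and 3 rose and 5 fell in SIRMu-1 (17.6% and 29.4%, beside 21.7% and 24.4%). Scd2, the second stearoyl-CoA desaturase, was at 204 to 395 CPM in primary cultures, 473 to 929 in SIRMu-1 replicates 1 to 4, 2019.9 in replicate 5 and 2502 to 2945 in rMC-1. It rose by 1.52 ± 0.39 in SIRMu-1 (edgeR adjusted p = 0.00836; 1.02 without replicate 5) and 3.00 ± 0.45 in rMC-1 (adjusted p = 9.29e-05), so SIRMu-1 replicates 1 to 4 had more Scd2 and less Scd than every primary library. Scd and Scd2 are similar genes, so reads of one may have been counted for the other or set aside, and their levels are less certain. Hacd1, a dehydratase of fatty acid elongation, fell by 3.62 ± 0.29 in rMC-1 (adjusted p = 8.33e-07). Elovl7, Elovl2 and Acacb, all at 2.63 CPM or less on average in primary cultures, fell in SIRMu-1.

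Of 10 users of isoprenoids, 3 rose and 4 fell in rMC-1 (30% and 40%), close to the 31.9% and 38.9% of all genes. In SIRMu-1 3 rose and 1 fell (30% and 10%, beside 21.7% and 24.4%). Rce1, a protease of prenylated proteins, was at 8.72 to 15 CPM in primary cultures, 25.7 to 36.6 in SIRMu-1 and 31.4 to 34.7 in rMC-1. It rose by 1.32 ± 0.16 (edgeR adjusted p = 8.59e-05) and 1.51 ± 0.18 (adjusted p = 1.35e-05). Fntb, a farnesyltransferase subunit, rose in rMC-1 (1.37 ± 0.24), and Rabggtb, of the prenyltransferase of Rab proteins, rose in both lines (0.62 ± 0.08 and 0.80 ± 0.09). Pggt1b, of another prenyltransferase, rose in SIRMu-1 (0.50 ± 0.17), and Rabggta, the partner of Rabggtb, fell in rMC-1 (-0.33 ± 0.12).

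Scaling by library totals in place of TMM moved the median of all genes by 0.47 in rMC-1 against primary and by -0.45 in SIRMu-1 against rMC-1. It raised the share of higher among called genes from 45.1% to 61.9% in the first and lowered it from 51.7% to 30.8% in the second. Relative to the median of all genes, the members' median in rMC-1 against primary was 1.50 under this scaling and 1.50 under the RLE factors. Subtracting that median removes a shift common to all genes, so these values could hardly differ and are no check on the scaling. Over all group comparisons, library totals added a call to 13 member differences, took 1 away and turned the sign of 6. RefSeq lists pseudogenes named after Acat2, Idi1, Fdps, Cyp51 and Nsdhl, so the counts of these 5 genes are less certain.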

How the data were processed

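Polyadenylated RNA of 12 rat cell cultures was sequenced with a stranded kit, per the labels' protocols. The submitters' processing notes name cutadapt 1.8.1, STAR 2.5.3a, edgeR 3.18.1 and build rn6; the role of each, the gene models and the use of strand, not given in the sources used here, are unknown. Per library, the authors deposited whole-number read counts for 17315 genes. Also deposited was log2 CPM of 10236 genes, which the counts matched within 4.97e-14 (edgeR log2 CPM, prior count 0.25) and which holds 31 of the 32 members. Reads in no gene, 24.2% to 30.3% of a library, reads with several mapping places (9.47% to 12.3%), ambiguous reads (0.15% to 0.19%) and unmapped reads (1.84% to 2.54%) entered neither library sizes nor tests.

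Groups came from the labels. Counts were fitted in R 4.3.3 with edgeR 4.0.16: filterByExpr on the 3 groups, TMM factors, 3 group means over 12 libraries (9 residual degrees of freedom), glmQLFTest, Benjamini-Hochberg adjustment over 11321 genes and calls at adjusted p under 0.05. For the drugs, 4 group means were fitted (8 residual degrees of freedom). Errors beside log2 values are standard errors. Heat maps and correlations used log2 CPM with a prior count of 2. The fit was also run on simulated counts of independent genes without an outlying library. That run cannot tell how the fit handles such a library or genes that vary together. Nothing says which cultures shared an animal, so p-values cover only the spread among these libraries, part of which may be technical. A code in the authors' file names, of unknown meaning, was common to primary replicates 1 and 2. In rMC-1 it was common to replicates 1 and 2, and in SIRMu-1 to replicates 1 to 3 and, with another code, to 4 and 5.

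Alternatives were RLE factors, library totals, DESeq2 1.42.0, limma 3.58.1 on the deposited table, other filters, 2 groups only, a replicate block, summed codes, drug-matched cultures and leaving out each library. The members and lists were chosen with earlier results of these data known. Values in every library are given for genes called in some comparison and among the 3 largest differences of their group, and for the regulators. Of other lists, genes among the 3 largest called differences of a comparison are named, as far as they are reported here. Promoters come from RefSeq (GRCr8), whose symbols matched 14810 of the 17315 genes; no coordinates of the authors' build were used.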

Additional observations from a re-analysis of the deposited data

Results flagged for a closer look

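Of 64 sets of values (32 genes in primary cultures and in SIRMu-1; rMC-1, with 3 libraries, was not examined), 16 had 1 library far from the others, where the gap to the nearest library exceeded Dixon's 95% critical share of the range. Chance alone gives about 1 in 20 sets only where the sets are independent and normally spread. These genes vary together and share libraries, so the 16 are not separate findings, and no rate over all genes was computed. In 14 of the 16 sets the far library was SIRMu-1 replicate 5. Among the sterol enzymes its levels were 91.8 CPM for Acat2, 31.3 for Mvk, 39.2 for Mvd, 109.5 for Lss, 464 for Cyp51, 10.5 for Tm7sf2 and 74.5 for Nsdhl. Among the regulators and carriers they were 18.4 CPM for Stard4, 145 for Insig1 and 106 for Srebf1. Among the fatty acid genes they were 438 CPM for Acly, 5.47 for Scd, 221 for Fads1 and 107 for Fads2. The other 2 were primary replicate 4, with 12.4 CPM for Tm7sf2 and 8.42 for Fads2. The reason was not tested.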

How the results depend on the processing

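All 24 member calls in rMC-1 against primary held when any 1 of the 12 libraries was left out. Of the 15 in SIRMu-1 against primary, 10 held in all 12 fits. Hmgcs1 lost its call without primary replicate 1, 2 or 4, SIRMu-1 replicate 3, 4 or 5, or any rMC-1 library, and Acly without any of these or primary replicate 3. Acaca lost it without primary replicate 1 or 4, SIRMu-1 replicate 4 or 5, or rMC-1 replicate 3, Cyp51 without primary replicate 1 or 2, and Dhcr7 without primary replicate 4. Of the 18 in SIRMu-1 against rMC-1, Acat2 held in 5 fits, Mvd in 6, Fads1 in 9 and the other 15 in all 12. In SIRMu-1 against primary, with libraries of 1 file-name code summed, 7 members rose and 1 fell, and 1466 of all genes rose and 1707 fell, with fewer samples. In the same comparison 24 members rose with the drug-matched SIRMu-1 cultures only (replicates 3 and 5), and 6 rose and 5 fell with those without drugs. There 4 members fell with limma on the deposited log2 CPM, and leaving out 1 library gave 2 to 5 members lower, the 5 without SIRMu-1 replicate 5. The same-numbered libraries had correlations of -0.06 to 0.10 in their deviations, so the numbers were not taken to pair libraries. With the replicate block, 9 members rose and 5 fell in SIRMu-1 and 26 rose and 2 fell in rMC-1. The shares of all genes called with this block are not given here. Member counts with it, also those between the lines, are therefore not read as a result about the members. Only SIRMu-1 has a library numbered 5, so the block in effect takes that library out of the group differences. It is therefore not a separate check from leaving out SIRMu-1 replicate 5. In SIRMu-1 against rMC-1, 24 were lower with that block, and 1 member was called higher with the replicate block, with the 2 groups only and with the cultures without drugs. With library totals, 2324 of all genes were higher and 5227 lower there. For the drugs, DESeq2 called 3 of all genes higher and 1 lower, and 0 to 2 were higher when 1 library was left out.

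Some log2 differences that were not called over all 12 libraries changed sign, and the cause was not tested. In SIRMu-1 against primary, leaving out 1 library gave -0.13 to 0.48 for Hsd17b7, -0.0622 to 0.20 for Ebp, -0.28 to 0.13 for Srebf1 and -0.0273 to 0.39 for Srebf2. With the replicate block, which in effect leaves out SIRMu-1 replicate 5, these were -0.15, -0.0445, -0.25 and -0.0195. With the cultures without drugs they were -0.34, -0.0022, -0.31 and -0.11, where Stard4 was at -0.15. Tm7sf2 was at 0.0543 with drug-matched cultures and Srebf1 at -0.0553 in limma. In rMC-1 against primary, library totals gave 0.36 for Ggps1 (called, edgeR adjusted p = 0.0491) and 0.26 for Hsd17b7, and Sc5d was at -0.0020 in limma and at -0.0406 to 0.19 with 1 library left out. In SIRMu-1 against rMC-1, leaving out 1 library gave -0.12 to 0.0491 for Ggps1, -0.50 to 0.235 for Lss and -0.15 to 0.44 for Nsdhl. The replicate block gave 0.0059 for Ggps1, -0.55 for Lss, -0.12 for Nsdhl and -0.0419 for Hsd17b7. Library totals gave -0.33 for Lss, -0.11 for Nsdhl, -0.26 for Insig2 and -0.0826 for Scap, and limma -0.0853 for Lss. The cultures without drugs gave -0.47 for Lss, -0.10 for Nsdhl and -0.12 for Hsd17b7.

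Depth limits Elovl6 most, whose mean level was at most 1.00 CPM in a group, and Scd in SIRMu-1. With 3 to 5 cultures a group and 1 line each, small differences may be missed, and an uncalled gene is not shown to be alike between groups.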
